A study of Mus musculus with 48 samples.

Results

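RNA of sorted endothelial cells of the mouse heart was compared between 2 fractions and 2 ages, and the quantity described here is the age difference of the fraction difference. It rests on 18 of the 48 libraries of the series, chosen by tissue, age and pair number: pairs 2, 3, 4 and 5 at postnatal day 1 (P1) and pairs 1, 2, 4, 5 and 6 at 6 weeks (6W), each with a TdTomato+ and a TdTomato- library. For 6W pairs 5 and 6 the title and source name say heart while the tissue entry says muscle. They were used as heart, and their 4 libraries held 116 to 218 CPM (scaled by total counts) summed over 5 heart muscle genes (Myh6, Tnni3, Tnnt2, Myl7 and Nppa), against 27.8 to 39.4 CPM in the other 6W heart libraries and at most 1.38 CPM in the 8 6W muscle libraries. Summed over 5 skeletal muscle genes (Acta1, Myh4, Myh1, Tnnt3 and Mylpf) they held 12.8 to 22.9 CPM, against 9.21 to 16.3 CPM in the other 6W heart libraries and 36.3 to 186 CPM in the muscle libraries, with Myh4 and Myh1 at 0. Every animal in these 4 groups was of the strain Abcg2CreERT; ROSATdTomato, which carries a tamoxifen-inducible Cre recombinase named for the Abcg2 gene and a TdTomato reporter that Cre switches on. Every animal, the source of the TdTomato- cells included, received 50 mg/kg tamoxifen intraperitoneally 24 h before the heart was taken. Hearts were digested with collagenase, and flow cytometry collected cells that were positive for CD31, an endothelial surface protein, and negative for CD45 and Ter119, which mark leukocytes and red cells. The design text calls the TdTomato+ fraction VESC and the other fraction mature EC. The reporter marks cells in which Cre acted during that day, so a TdTomato- cell can also hold Abcg2 RNA. Whether each library holds 1 animal or several is not in the labels. The p-values therefore reflect how far these libraries spread, which may in part be technical.

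The endothelium of the heart is a mixture. Coronary capillaries carry fatty acids from blood to muscle, arteries depend on Notch signalling and SoxF transcription factors, veins carry the adhesion molecules that bind leukocytes, and lymphatic vessels drain fluid. The endocardium is a separate sheet that lines the chambers and covers the valves, and it is marked by genes such as Npr3, Plvap and Gata4. Abcg2 is an ATP-binding cassette transporter that pumps drugs and dyes out of cells. Cells with this efflux form the side population that is used to enrich progenitors in many tissues. In bulk RNA of a sorted fraction, fewer cells of a type and less RNA per cell cannot be told apart.

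Total counts were 17512843 to 23656527 per library, 13048 to 14405 genes had a count, and 81.2 to 89.6% of reads mapped uniquely. The defining endothelial genes were high in every library: Pecam1 ran from 984 to 2690 CPM (counts scaled to library size with TMM factors), Cdh5 from 717 to 1280 and Tie1 from 1180 to 2670. RNA integrity numbers were 3.6 to 9.7, and the TdTomato+ minus TdTomato- difference was -1.85 ± 2.09 at P1 (SD, n = 4 pairs) and -0.92 ± 0.887 at 6W (n = 5; two-sided exact permutation p = 0.524). At P1 the TdTomato+ library held fewer genes with a count in 4 of 4 pairs (mean difference -821 ± 429, SD), against 13.6 ± 115 at 6W (exact permutation p = 0.0159, the smallest that 4 against 5 pairs allows). Its part in the results below was not tested. All P1 libraries and 6W pairs 1, 2 and 4 came from the first of the sequencing runs, while 6W pairs 5 and 6 came from the second, so the ages can be compared within the first run alone. Both libraries of P1 pairs 2, 3 and 4 and of 6W pairs 4 and 5 held at least 10 CPM of Xist RNA, those of 6W pairs 1, 2 and 6 held at least 10 CPM of the Y-linked gene Ddx3y, and those of P1 pair 5 held both (Xist 45 and 70.5 CPM, Ddx3y 63.3 and 57.9 CPM). The TdTomato+ library of P1 pair 5 also stood apart in other ways given below, so counts are given with and without that pair. P1 pair 1 was left out because its label says that the TdTomato+ library failed quality control. That library had 8631 genes with a count, and with it in the model 2 genes passed the test described next (981 at an unadjusted p below 0.05).

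Abcg2, which drives the reporter, was measured first. At P1 its level in pairs 2, 3, 4 and 5 was 124, 124, 79.5 and 140 CPM in TdTomato+ cells and 121, 113, 112 and 106 CPM in TdTomato- cells. At 6W it was 243, 191, 218, 250 and 227 CPM in TdTomato+ cells of pairs 1, 2, 4, 5 and 6 and 178, 173, 201, 203 and 193 CPM in their partners. The fractions overlapped at both ages. The TdTomato+ library was the higher of the pair in 3 of 4 pairs at P1 and in 5 of 5 at 6W. Neither effect passed (log2 fold change 0.02 ± 0.12, SE, adjusted p = 0.941 at P1 and 0.25 ± 0.11, adjusted p = 0.571 at 6W), nor did their difference (0.23 ± 0.17, adjusted p = 0.517, edgeR quasi-likelihood test with Benjamini-Hochberg adjustment over 13992 genes).

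The fraction difference itself was not the same at the 2 ages. In the paired model the age shift, which is the log2 fold change of TdTomato+ over TdTomato- cells at 6W minus that at P1, passed an adjusted p of 0.05 for 560 of 13992 genes, or 4.00% (edgeR quasi-likelihood, Benjamini-Hochberg). It was positive for 332 genes (2.37%) and negative for 228 (1.63%), and at least 2-fold for 303 and 50 of them. At an unadjusted p below 0.05 there were 2550. The positive shifts were large (median 3.33) and lay in genes of low level, with a median of 26.5 CPM in the highest of the 4 groups. The negative shifts were small (median -0.72) and lay in genes of high level (median 228 CPM). Without P1 pair 5 the test passed 1030 genes (7.30%), 548 positive (3.88%) and 482 negative (3.42%). Without P1 pair 3 it passed 242, without P1 pair 2 298, without P1 pair 4 360, without 6W pair 1 310 and without 6W pair 2 330. Scaled by total counts alone it passed 396 positive and 102 negative, with the median of all genes moved from 0.02 to 0.16, and without the pair term 310 and 96. With RNA integrity as a covariate it passed 328 positive and 238 negative. Within the first run, which leaves out 6W pairs 5 and 6, it passed 333 positive (2.36%) and 179 negative (1.27%).

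Most of the shift came with a fraction difference at P1 that was smaller or of the other sign at 6W. At P1 the effect passed for 1057 genes (7.55%), 567 higher in TdTomato+ cells (4.05%) and 490 lower (3.50%). That split was 215 and 670 when scaled by total counts alone, 177 and 309 without the pair term, and 71 and 123 with RNA integrity as a covariate. At 6W it passed for 10 genes (0.0715%), 9 higher (0.0643%) and 1 lower (0.00715%), with 1149 at an unadjusted p below 0.05. Leaving out a pair moved both counts, for P1 to 2364 without P1 pair 5 (16.8%, with 8.05% higher and 8.71% lower) and to 349, 263 and 346 without P1 pairs 2, 3 and 4, and for 6W to 95 without 6W pair 5 and to 3 or 4 without 6W pair 1, 4 or 6 or P1 pair 2. Of the 332 positive shifts, 267 belonged to genes that were lower in TdTomato+ cells at P1 by the test, and of the 228 negative ones 185 belonged to genes that were higher there. The P1 effect was the larger in 486 of the 560 genes, and the 2 effects had opposite signs in 506, but no gene passed at both ages with opposite signs. The effects share the libraries of the shift, so these counts describe it and are no further test. Another 101 of the 560 passed at neither age. The differences within the 4 P1 pairs and the 5 6W pairs did not overlap, in the direction of the shift, for 523 of the 560 genes (3.74% of all tested), where 1245 of all genes tested (8.90%) met that alone. In the authors' deposited table of the P1 minus 6W contrast, 1630 of 15569 genes had a false discovery rate below 0.05. They included 364 of these 560, all in the same direction. That table comes from the authors' own analysis of the same deposited counts, so the overlap is no separate test.

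**Figure D1:**
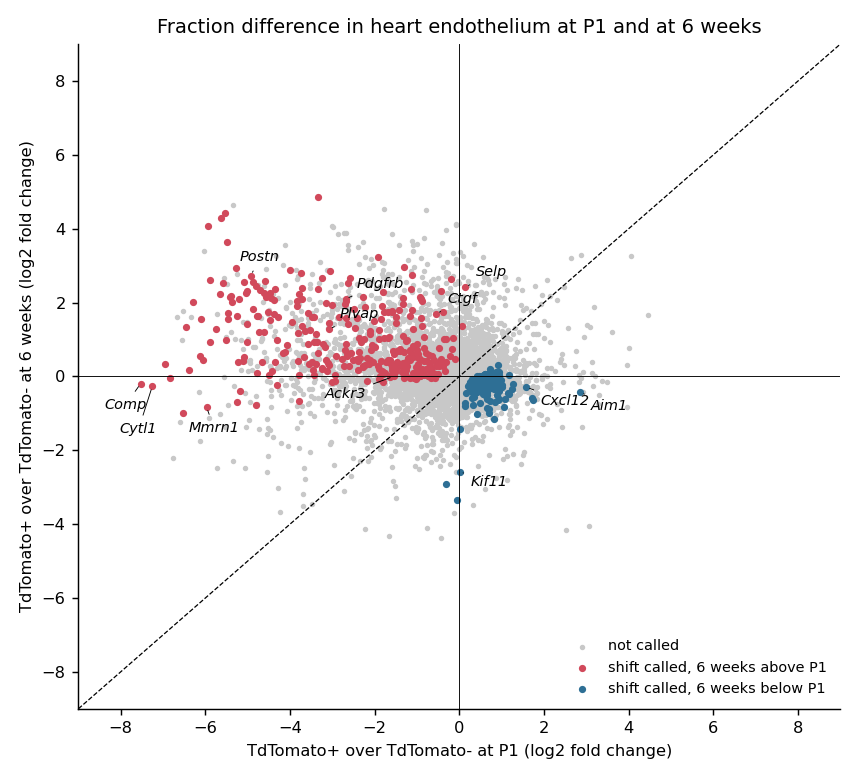
Log2 fold change of TdTomato+ over TdTomato- heart endothelial cells at P1 (horizontal) and at 6 weeks (vertical) for each gene, without the 424 genes that had under 3 counts in a group. The dashed line marks equal effects; genes with a positive shift lie mostly to the left of 0 at P1 and those with a negative shift to the right, while at 6W most of both lie nearer to 0.

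Genes of the endocardium made up the most regular group. Of 19 endocardial genes tested, the age shift was positive in 14 and negative in none by the test, and the list median was 3.45 against 0.02 over all genes. At P1 17 of the 19 were lower in TdTomato+ cells (list median -3.08), while at 6W none passed and the median was 0.13. The 14 were Ednrb, Cgnl1, Tmem100, Foxc1, Vwf, Fgl2, Npr3, Plvap, Gata4, Tmem108, Adgrg6, Cdh11, Dkk3 and Cytl1. All list counts stand against 2.37% positive and 1.63% negative shifts over all genes tested, and against 4.05% higher and 3.50% lower at P1. Lists can share genes, so the counts of different lists are not separate. Plvap and Vwf are also in the venous list, Fgl2 in the lymphatic list and Dkk3 in the valve list. Postn is in both the valve and the fibroblast list. Summed over the 19 genes, the TdTomato+ libraries at P1 held 882 to 1230 CPM and their partners 1970 to 2900, lower in 4 of 4 pairs. At 6W the sums were 1610 to 2540 and 1370 to 1900 CPM and overlapped, higher in TdTomato+ cells in 2 of 5 pairs. With P1 pair 5 left out 14 genes passed, without P1 pair 2 or 3 8 passed, and within the first run 10 passed.

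Plvap (mm10 chromosome 8, 71497753 to 71511769, minus strand) encodes the protein of the diaphragms that close endothelial fenestrae and caveolae, and in the heart it marks endocardium and veins. At P1 its level was 24.8, 42.5, 41.7 and 57.8 CPM in TdTomato+ cells of pairs 2 to 5 and 226, 387, 389 and 383 CPM in TdTomato- cells. By 6W it stood at 71.4, 240, 82.08, 83.3 and 73.4 CPM in TdTomato+ cells of pairs 1, 2, 4, 5 and 6 and 20.2, 36.3, 47.7, 77.3 and 36.7 CPM in TdTomato- cells. The fractions did not overlap at P1, where every TdTomato- library was the higher, and they overlapped at 6W through TdTomato- library 5. The log2 fold change was -3.08 at P1 (adjusted p = 0.000433) and 1.28 at 6W (adjusted p = 0.152), a shift of 4.36 ± 0.42 (SE, adjusted p = 0.000652; edgeR quasi-likelihood, Benjamini-Hochberg). Gata4, a transcription factor of the cardiac lineages, was at 12.7 ± 6.29 CPM against 71.9 ± 9.46 at P1 (SD, n = 4) and 26.2 ± 17.6 against 5.90 ± 2.57 at 6W (n = 5), a shift of 4.71 ± 0.60 (SE, adjusted p = 0.00197). Foxc1, a forkhead factor needed for outflow tract and vessel development, was at 17.3, 31.0, 40.1 and 37.5 CPM in TdTomato+ cells at P1 and 74.7, 117, 102 and 110 CPM in TdTomato- cells. At 6W its fractions lay at 35.2 to 78.0 and 31.2 to 42.3 CPM and overlapped, and the shift was 2.13 ± 0.25 (adjusted p = 0.00152). Cytl1, a small secreted protein, had the largest shift of the list at 6.99 ± 1.23 (adjusted p = 0.00827). It was at 0, 0, 0 and 1.22 CPM in TdTomato+ cells at P1 against 13.6, 48.5, 33.0 and 49.0 CPM, and at 29.0 ± 30.3 against 28.4 ± 24.4 CPM at 6W (SD, n = 5).

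The valve list, of endothelial and matrix genes of the cardiac valves, shifted in part with the endocardium. Of 17 tested, 6 were positive (Ptn, Dkk3, Comp, Wnt4, Postn and Tbx20) and 1 was negative (Klf4), with a median of 3.17. At P1 7 were lower and 1 was higher in TdTomato+ cells. Without P1 pair 5 7 were positive, and without P1 pair 2, 3 or 4 3 were. Postn (chromosome 3, 54361107 to 54391041, plus strand), which encodes periostin, a matrix protein of valve mesenchyme and activated fibroblasts, had the largest shift of all genes that the selection rule took by size. At P1 its level was 0.604, 0.978, 21.11 and 49.2 CPM in TdTomato+ cells and 191, 246, 253 and 246 CPM in TdTomato- cells. In the 6W libraries it was 33.3, 109, 18.11, 37.5 and 45.6 CPM in TdTomato+ cells and 2.07, 7.94, 4.45, 10.7 and 10.05 CPM in TdTomato- cells. The fractions overlapped at neither age, and their order turned, with a shift of 7.66 ± 1.11 (SE, adjusted p = 0.00363) from -4.93 at P1 (adjusted p = 0.00657) and 2.73 at 6W (adjusted p = 0.223). Comp, a cartilage and tendon matrix protein, shifted by 7.33 ± 1.16 (adjusted p = 0.00479). It was at 0, 0.0851, 0 and 1.14 CPM in TdTomato+ cells at P1 against 35.9 to 67.6 CPM, and at 1.30 to 67.4 against 3.87 to 18.4 CPM at 6W. Tbx20, a T-box factor of heart development, had 2 counts over the 4 TdTomato+ libraries at P1 and 295 over their partners, which is 38.1-fold to 1150-fold higher in the partners (95% exact interval, counting error only). At 6W it had 505 and 51 counts.

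Lymphatic genes had positive shifts in 5 of 14 tested and negative ones in none (median 2.80), namely Foxc2, Fgl2, Lyve1, Pdpn and Mmrn1. Of these, Fgl2 was counted with the endocardial genes too. At P1 7 were lower in TdTomato+ cells, and none passed at 6W (median -0.12). With P1 pair 5 left out the same number of 5 passed. Mmrn1, an adhesive glycoprotein of lymphatic endothelium and platelets, was at 0.0549, 0.0425, 0.0449 and 1.68 CPM in TdTomato+ cells at P1 and 8.58, 10.4, 7.40 and 65.3 CPM in TdTomato- cells. At 6 weeks it was at 11.9, 50.3, 20.8, 58.4 and 12.7 CPM in TdTomato+ cells and 16.8, 20.14, 70.8, 125.7 and 46.8 CPM in TdTomato- cells. Thus the fractions were apart at P1 and overlapped at 6W, where TdTomato+ was the lower in 4 of 5 pairs, with a shift of 5.14 ± 0.75 (adjusted p = 0.00363). Foxc2, a forkhead factor needed for lymphatic valves, shifted by 3.24 ± 0.52 (adjusted p = 0.00489), and Fgl2, a secreted fibrinogen-like protein, by 3.45 ± 0.57 (adjusted p = 0.00599). These P1 values are seen also in the summed list, at 634 to 684 CPM in TdTomato+ and 783 to 1000 CPM in TdTomato- libraries, which did not overlap, against 445 to 625 and 445 to 786 CPM at 6W.

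Among venous genes 10 of 20 had a positive shift and none a negative one, with a median of 0.96. Their median effect was -0.36 at P1, where 9 were lower in TdTomato+ cells, and 0.59 at 6W, where 1 was higher. Without P1 pair 5 10 were positive and 1 was negative. Vwf, the clotting factor that endothelium stores in Weibel-Palade bodies, was at 70.6, 130, 105 and 69.6 CPM in TdTomato+ cells at P1 and 201, 291, 242 and 161 CPM in TdTomato- cells. At 6W it was at 251, 635, 376, 317 and 196 CPM in TdTomato+ cells and 94.0, 164, 271, 213 and 155 CPM in TdTomato- cells. TdTomato+ was the lower in 4 of 4 pairs at P1 and the higher in 5 of 5 at 6W, with a shift of 2.22 ± 0.29 (adjusted p = 0.00239). Ptgs1, which encodes cyclooxygenase 1, was at 75.0 ± 21.7 against 140 ± 15.8 CPM at P1 (SD, n = 4) and 251 ± 59.5 against 177 ± 25.8 CPM at 6W (n = 5), a shift of 1.41 ± 0.19 (SE, adjusted p = 0.00272).

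**Figure D2:**
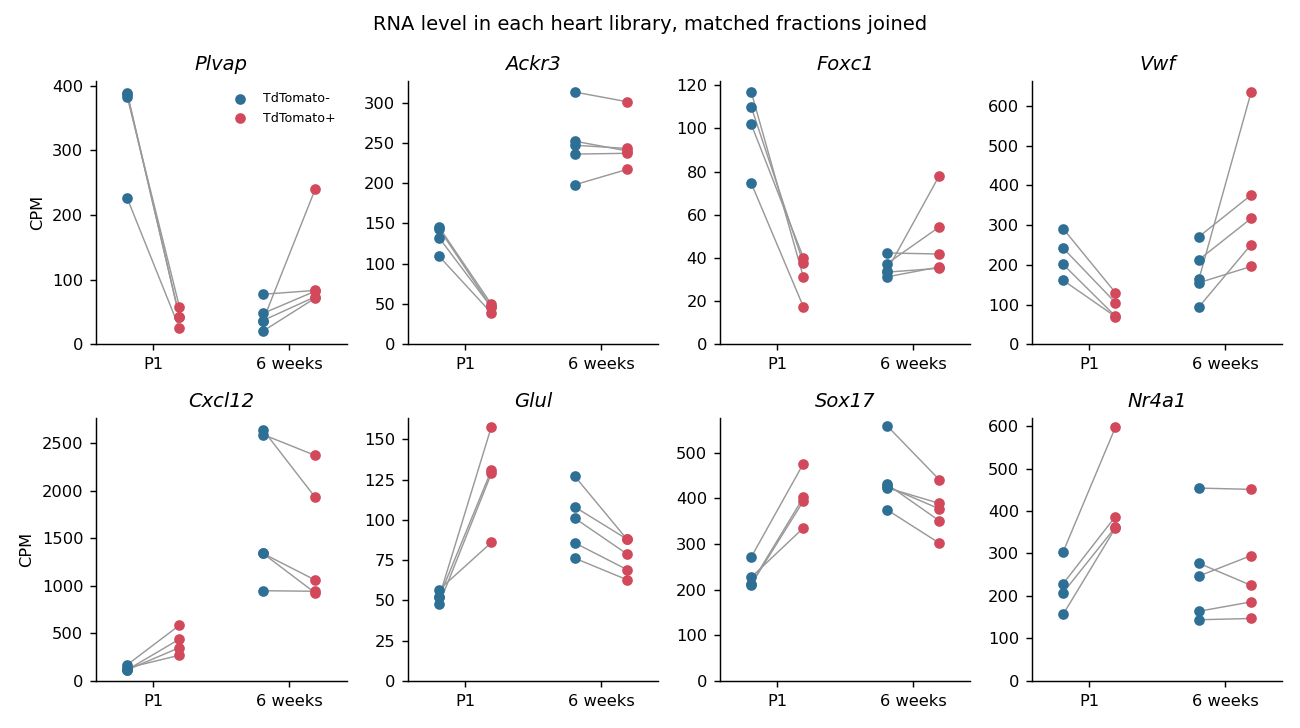
CPM of 8 genes (vertical axes, each from 0) in each TdTomato- (blue) and TdTomato+ (red) heart library, with the libraries of a matched pair joined by a line; 4 pairs at P1 and 5 at 6 weeks. Plvap, Ackr3, Foxc1 and Vwf were lower in TdTomato+ cells in every P1 pair and not in every 6W pair, and Cxcl12, Glul, Sox17 and Nr4a1 were higher in every P1 pair.

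Chemokine and adhesion genes moved both ways, 6 of 19 positive (Cxcl16, Ackr3, Vcam1, Selp, Sele and Ackr4) and 2 negative (Cxcl12 and Cx3cl1). Cxcl12 and Ackr3 shifted in opposite directions, from opposite effects at P1 (1.58 and -1.555) to small ones at 6W (-0.29 and -0.00081). With P1 pair 5 left out the counts were again 6 and 2, but without P1 pair 3 or 4 3 were positive. Cxcl12 (chromosome 6, 117168535 to 117181368, plus strand) encodes the chemokine that binds the receptor Cxcr4 and the scavenging receptor Ackr3. At P1 its level was 439, 585, 350 and 270 CPM in TdTomato+ cells and 116, 170, 115 and 136 CPM in TdTomato- cells. By 6W it stood at 942, 925, 1060, 2370 and 1930 CPM in TdTomato+ cells of pairs 1, 2, 4, 5 and 6 and 948, 1340, 1340, 2590 and 2640 CPM in TdTomato- cells. The fractions were apart at P1, with TdTomato+ higher in each pair, and at 6W they overlapped, with TdTomato+ lower in 5 of 5 pairs. The log2 fold change was 1.58 at P1 (adjusted p = 0.000245) and -0.29 at 6W (adjusted p = 0.531), a shift of -1.87 ± 0.18 (SE, adjusted p = 0.000652; edgeR quasi-likelihood, Benjamini-Hochberg).

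Ackr3 (chromosome 1, 90203980 to 90215722, plus strand), which takes up Cxcl12 without signalling through G proteins, had the smallest p of the named genes. It was at 38.7, 45.8, 46.1 and 49.5 CPM in TdTomato+ cells at P1 and 109, 132, 143 and 145 CPM in TdTomato- cells. In the 6W libraries it was at 217, 237, 243, 240 and 301 CPM and at 198, 236, 247, 252 and 313 CPM in the same order of pairs. Its pair differences at P1 ran from -1.63 to -1.5 on the log2 scale, and those at 6W from -0.07 to 0.13. The shift was 1.55 ± 0.10 (adjusted p = 1.48e-05). Ackr4, a scavenger of other chemokines, shifted by 7.30 ± 1.83 (adjusted p = 0.0494) on levels of 0, 0, 0 and 1.30 CPM in TdTomato+ cells at P1. It did not pass without any 1 of 6W pairs 1, 2, 5 and 6 and P1 pairs 2, 3 and 4 (shift 6.38 to 7.63). Vcam1, which binds leukocyte integrins, was at 12.3 ± 6.44 against 31.4 ± 5.02 CPM at P1 (SD, n = 4) and 99.5 ± 28.5 against 61.5 ± 18.99 CPM at 6W (n = 5), a shift of 2.18 ± 0.34 (SE, adjusted p = 0.00464).

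Arterial genes held more negative shifts than positive ones. Of 24 tested, 8 had a negative shift (Sema3g, Alox12, Unc5b, Hey1, Sox17, Stmn2, Jag2 and Dll4) and 2 a positive one (Eln and Mgp), with a median of -0.61. Their effects were 6 higher and 4 lower at P1 and none at 6W (median -0.28), and without P1 pair 5 the counts of shifts were 8 and 2. Without P1 pair 3 5 were negative. Summed over the 24 genes, the TdTomato+ library was the lower of the pair in 4 of 4 P1 pairs (median log2 ratio -0.15) and in 5 of 5 6W pairs (-0.17), so the sum differed little between the ages. Sox17 (chromosome 1, 4490928 to 4497354, minus strand), a SoxF factor of arterial fate, was at 402, 476, 394 and 335 CPM in TdTomato+ cells at P1 and 213, 271, 211 and 227 CPM in TdTomato- cells. At 6 weeks it was at 351, 302, 441, 389 and 377 CPM in TdTomato+ cells and 431, 375, 559, 423 and 426 CPM in TdTomato- cells. TdTomato+ was above its partner in each of the 4 P1 pairs and below it in each of the 5 6W pairs, with a shift of -1.05 ± 0.11 (adjusted p = 0.000939). Mgp, an inhibitor of BMP signalling and calcification, went the other way, at 15.11 ± 6.78 against 95.8 ± 43.6 CPM at P1 (SD, n = 4) and 129 ± 67.8 against 68.5 ± 29.3 CPM at 6W (n = 5), a shift of 3.57 ± 0.46 (SE, adjusted p = 0.00200).

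Notch signalling genes overlapped with this list. Of 16 tested, 4 had a negative shift, the ligands Jag2 (-0.90 ± 0.11, SE, adjusted p = 0.00197) and Dll4 (-0.71 ± 0.14, adjusted p = 0.0136), the target Hey1 (-1.08 ± 0.17, adjusted p = 0.00440) and the receptor Notch4 (-0.68 ± 0.11, adjusted p = 0.00480). All 4 were higher in TdTomato+ than TdTomato- libraries in 4 of 4 P1 pairs and lower in 5 of 5 6W pairs. Notch4 reversed with P1 pair 1 in the model, at 0.044 (adjusted p = 0.986, edgeR quasi-likelihood), and Dll4 did not pass without P1 pair 3 (-0.66). The other 2 that passed, the ligand Dll1 and the receptor Notch2, had positive shifts. Without P1 pair 5 6 were negative and 2 positive, and without the pair term 2 and 0.

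Capillary and fatty acid uptake genes formed the largest group of negative shifts, 9 of 23 (Cxcl12, Rbp7, Aqp7, Tcf15, Rgcc, Btnl9, Fabp4, Gpihbp1 and Pparg) with 1 positive (Hmcn1) and a median of -0.40. At P1 12 were higher in TdTomato+ cells and 1 was lower, and none passed at 6W. Rbp7, a retinol binding protein of capillary endothelium, was at 551, 563, 379 and 390 CPM in TdTomato+ cells at P1 and 315, 268, 189 and 258 CPM in TdTomato- cells. At 6W the fractions lay at 282 to 763 and 398 to 712 CPM and overlapped, and the shift was -1.12 ± 0.17 (adjusted p = 0.00431). Rgcc, a regulator of cell cycle and vascular signalling, was at 443 ± 40.4 against 251 ± 10.6 CPM at P1 (SD, n = 4) and 1361 ± 254 against 1359 ± 137 CPM at 6W (n = 5), a shift of -0.83 ± 0.13 (SE, adjusted p = 0.00431). With P1 pair 5 left out 8 of the list were negative. Without P1 pair 2, 3 or 4 or 6W pair 1 or 2 5 were, and without the pair term 3.

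Pan-endothelial genes shifted little. Of 22 tested, 4 were negative and none positive, with a median of -0.28. Cdh5, the adherens junction cadherin of endothelium, shifted by -0.52 ± 0.11 (adjusted p = 0.0219), Cldn5, a tight junction protein, by -0.74 ± 0.16 (adjusted p = 0.0224), Sox18, another SoxF factor, by -0.75 ± 0.15 (adjusted p = 0.0148), and Icam2 was the fourth. None of the 4 was called without P1 pair 3 or without the pair term, while without P1 pair 5 6 of the list were negative and 2 positive. The list as a sum was above its partner in TdTomato+ libraries in 4 of 4 P1 pairs (17600 to 23600 against 16700 to 18800 CPM) and below it in 5 of 5 6W pairs (23900 to 29400 against 28200 to 33100 CPM). Cdh5 did not pass without 6W pair 2, 4 or 5 or P1 pair 2 or 3, Cldn5 without 6W pair 1, 2 or 5 or P1 pair 2, 3 or 4, and Sox18 without 6W pair 1 or P1 pair 3, with shifts of -0.53 to -0.45, -0.77 to -0.67 and -0.67 to -0.64. Both Cdh5 (-0.37) and Cldn5 (-0.60) also did not pass when scaled by total counts alone.

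Genes of sprouting tip cells had negative shifts in 6 of 23 and positive ones in none (median -0.23). They were Unc5b, Pdgfb, Apln, Col4a2, Dll4 and Col4a1. Apln, the peptide ligand apelin of growing vessels, was the gene of the list that differed at 6W. At P1 it was at 351, 450, 379 and 274 CPM in TdTomato+ cells and 348, 444, 316 and 229 CPM in TdTomato- cells. At 6W it was at 31.0, 25.6, 13, 18.7 and 28.8 CPM in TdTomato+ cells and 43.5, 40.3, 26.4, 36.8 and 53.6 CPM in TdTomato- cells. Its level was lower at 6W in both fractions, and within pairs TdTomato+ was below TdTomato- in 5 of 5, with a log2 fold change of -0.80 (adjusted p = 0.00723) and a shift of -0.94 ± 0.14 (adjusted p = 0.00376). Col4a2, a chain of basement membrane collagen, shifted by -0.74 ± 0.11 (adjusted p = 0.00398). The list held 5 negative shifts without P1 pair 5, 2 without P1 pair 3, 3 without P1 pair 2 or 6W pair 2, and 3 without the pair term.

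BMP and TGF-beta signalling held 3 negative shifts in 25 genes, the receptor Acvrl1 (-0.77 ± 0.14, adjusted p = 0.0101), the target Id1 (-0.71 ± 0.16, adjusted p = 0.0269) and the inhibitor Smad7 (-0.69 ± 0.17, adjusted p = 0.0378). Over all genes tested 1.63% had a negative shift. This list count was 4 without P1 pair 5 and 1 without 6W pair 1. It was also 1 within the first run, when scaled by total counts alone and without the pair term. For Id1 and Smad7 the pair differences of the ages overlapped. Id1 did not pass without 6W pair 1, 2 or 5 or P1 pair 2, 3 or 4 (-0.73 to -0.62), nor Smad7 without any 1 of 8 pairs, P1 pair 5 the exception (-0.72 to -0.62). Shear stress and nitric oxide genes held 3 positive shifts in 15 (Ednrb, Ptgs1 and Ptgis) and 1 negative. The positive count was 1 without 6W pair 1, 2 or 4 or P1 pair 2 or 3 and 2 without 6W pair 5 or 6 or P1 pair 4, and the negative count was 2 without P1 pair 5. The negative one was Klf4, a factor induced by flow, at 155 ± 29.8 against 89.05 ± 24.2 CPM at P1 (SD, n = 4) and 447 ± 136 against 420 ± 121 CPM at 6W (n = 5), a shift of -0.73 ± 0.15 (SE, adjusted p = 0.0190). It did not pass without 6W pair 1 or 2 or P1 pair 2, 3 or 4 (-0.73 to -0.61). Ptgis, which makes prostacyclin, shifted by 4.55 ± 1.03 (adjusted p = 0.0278) and did not pass without 6W pair 1, 2 or 4 or P1 pair 2 or 3 (4.17 to 4.93). In the VEGF and angiopoietin list 1 of 15 passed, where 4.00% of all genes tested did. It was the secreted angiopoietin-like gene Angptl2 (2.78 ± 0.69, adjusted p = 0.0433), which did not pass without 6W pair 1, 2 or 6 or P1 pair 2, 3 or 4 (2.30 to 2.90).

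**Figure D3:**
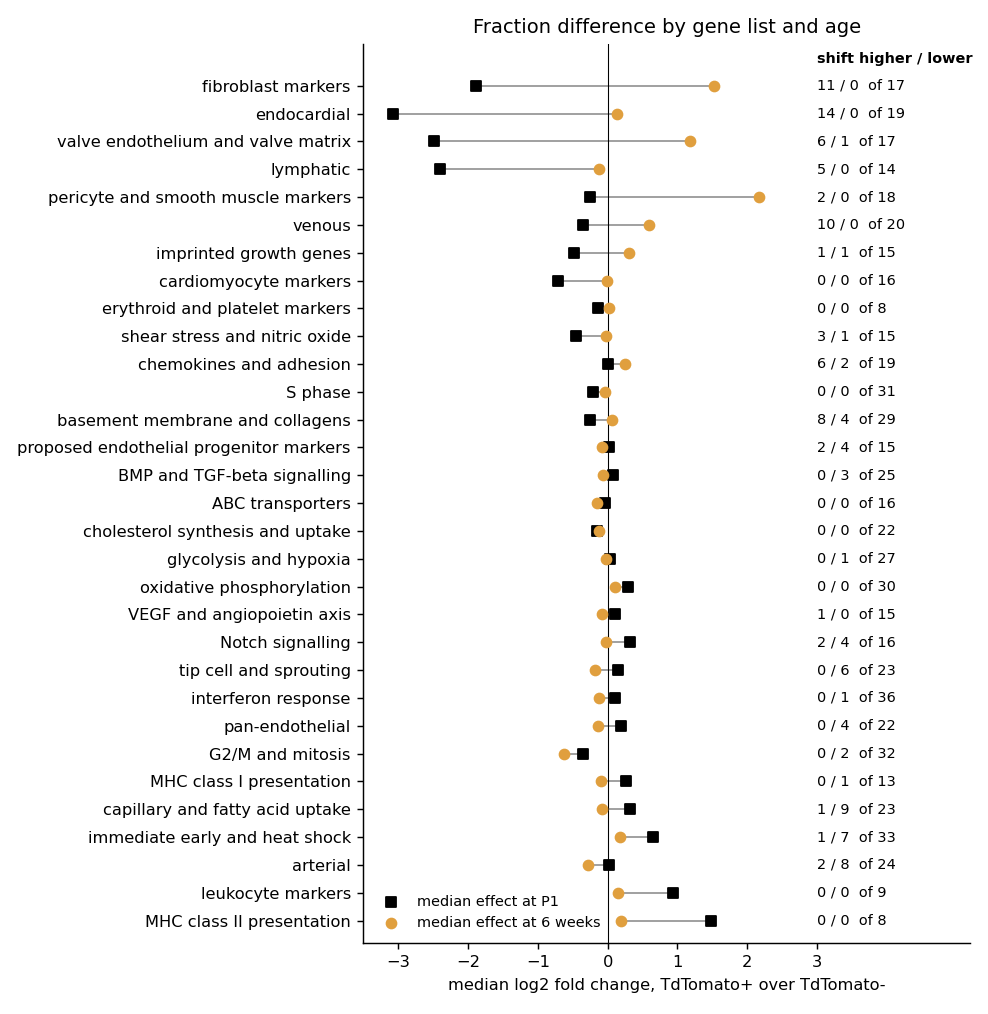
Median log2 fold change of TdTomato+ over TdTomato- cells at P1 (black squares) and at 6 weeks (orange circles) for the 31 gene lists with at least 8 genes tested, ordered by median age shift. Numbers at the right give the genes whose shift was called higher and lower of those tested; endocardial, fibroblast, valve and lymphatic lists lie far below 0 at P1 and near or above 0 at 6W.

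The list of immediate early genes and heat shock genes, which react within minutes to stress and to stimulation, held 20 of 33 genes that were higher in TdTomato+ cells at P1 (median 0.65) and none that was lower. At 6W 1 was higher (median 0.17). The age shift was negative in 7, Nr4a1, Btg2, Zfp36, Hspa1a, Dusp1, Ier2 and Fos, and positive in 1, Myc, with a median of -0.45. Nr4a1, an orphan nuclear receptor, was at 360, 597, 362 and 387 CPM in TdTomato+ cells at P1 and 157, 304, 208 and 229 CPM in TdTomato- cells. By 6W it stood at 225, 295, 186, 147 and 451 CPM and at 277, 247, 164, 144 and 454 CPM. The fractions were apart at P1, but at 6W each pair lay close together while pairs differed, and the shift was -0.90 ± 0.14 (adjusted p = 0.00434). Btg2, an inhibitor of proliferation, shifted by -0.76 ± 0.14 and Dusp1, a phosphatase of MAP kinases, by -0.55 ± 0.10 (adjusted p = 0.00977 for both). Counts in this list depended on the libraries, with 14 negative without P1 pair 5, 3 without P1 pair 2 or 3, 4 without 6W pair 1 or P1 pair 4, 3 when scaled by total counts alone and 0 without the pair term.

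Promoters of the called members are shown because 7 of the 8 shifted in 1 direction. The motif is the element bound by CREB factors, which was picked because genes of this class are known to carry it, so its share among them is no finding. The letters searched were TGACGT on either strand and the palindrome TGACGTCA that contains it, in the 250 bases before the start of each gene, from RefSeq (GRCm38.p6). Of the 8 members that passed, 6 had a promoter in the table. TGACGT was found in 3 of the 6 and TGACGTCA in 2, and over all 32851 promoters the shares were 6.47% and 1.55%. Capitals mark the matches in these stretches, which end before the start site.
Fos, chr12:85473784-85473871, plus strand: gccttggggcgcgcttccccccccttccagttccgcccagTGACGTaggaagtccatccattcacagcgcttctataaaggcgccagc
Btg2, chr1:134079274-134079361, minus strand: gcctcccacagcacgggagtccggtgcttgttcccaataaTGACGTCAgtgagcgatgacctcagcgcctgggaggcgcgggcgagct
Dusp1, chr17:26508568-26508703, minus strand: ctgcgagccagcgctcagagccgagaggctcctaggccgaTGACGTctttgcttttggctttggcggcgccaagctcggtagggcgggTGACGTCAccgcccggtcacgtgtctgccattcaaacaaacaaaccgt
The windows of Nr4a1, Zfp36 and Hspa1a held no match, which says only that these letters are not there.

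Fibroblast markers, genes of a cell type that the gate should leave out, had the highest list median of all at 3.96, with 11 of 17 positive (Mfap5, Lox, Gsn, Fbln1, Pdgfra, Col1a2, Mfap4, Lum, Dcn, Col3a1 and Postn) and none negative. At P1 8 were lower in TdTomato+ cells (median -1.89) and at 6W none passed (median 1.52). Several of these are matrix genes that valve cells also make. Summed over the list, TdTomato+ libraries 2, 3, 4 and 5 at P1 held 87.9, 125, 125 and 507 CPM and their partners 712, 1000, 877 and 1120 CPM. At 6W the sums were 1420, 3400, 1020, 808 and 821 CPM in TdTomato+ and 381, 572, 452, 831 and 616 CPM in TdTomato- libraries of pairs 1, 2, 4, 5 and 6. Library 5 stood well above the other TdTomato+ libraries at P1, and at 6W TdTomato+ was the higher in 4 of 5 pairs, with pair 5 the exception. No marker of the list was at 0 throughout a group. The part of such cells in the endothelial shifts above was not tested.

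Pdgfra, a receptor that defines cardiac fibroblasts, was at 1.76, 1.36, 0.0449 and 13.8 CPM in TdTomato+ cells at P1 and 14.4 to 26.9 CPM in TdTomato- cells. Its shift of 3.96 ± 0.93 (adjusted p = 0.0341) did not pass without 6W pair 1, 2, 4 or 6 or P1 pair 2 or 3 (3.80 to 4.1). Col1a1, the main fibrillar collagen gene, stood at 0, 0.170, 0.180 and 84 CPM in TdTomato+ cells at P1 against 13.09, 14.7, 2.64 and 34.4 CPM, so that library 5 was above its partner. Its shift was 5.42 ± 1.496 and did not pass (adjusted p = 0.0681). Dcn, which encodes decorin, shifted by 6.00 ± 1.18 (adjusted p = 0.0145), Col1a2 by 4.95 ± 0.70 (adjusted p = 0.00318) and Mfap5 by 1.77 ± 0.27 (adjusted p = 0.00431). Without P1 pair 5 13 of the list passed, without P1 pair 2 or 3 7, and without the pair term 6.

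**Figure D4:**
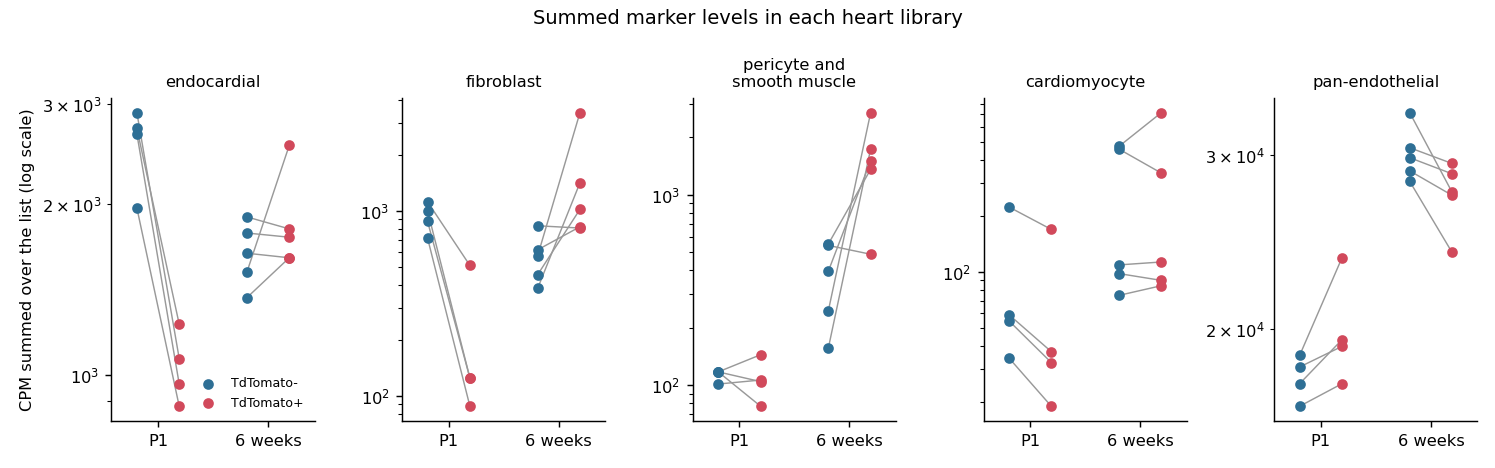
CPM summed over the tested genes of 5 marker lists (log axes) in each TdTomato- (blue) and TdTomato+ (red) heart library, matched pairs joined; 4 pairs at P1 and 5 at 6 weeks. Endocardial and fibroblast sums were lower in TdTomato+ libraries in all P1 pairs, while pericyte and smooth muscle sums were higher in 4 of 5 6W pairs.

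Pericyte and smooth muscle markers differed from the fibroblast list in where the difference lay. Their median effect was -0.26 at P1 and 2.17 at 6W. A positive shift was called in 2 of 18 (list median 2.47), against 2.37% of all genes tested. Sums were 77.2 to 144 CPM in TdTomato+ and 101 to 117 CPM in TdTomato- libraries at P1. At 6W they were 1510, 2700, 1740, 486 and 1360 CPM in TdTomato+ and 396, 245, 156, 541 and 550 CPM in TdTomato- libraries. TdTomato+ was the higher in 4 of 5 6W pairs, with pair 5 the exception, and the P1 fractions overlapped. Pdgfrb, the receptor that defines pericytes, was at 0, 0, 2.92 and 5.30 CPM in TdTomato+ cells at P1 against 6.91 to 13.6 CPM. In the 6W libraries it was at 106, 222, 93, 37.1 and 82.3 CPM against 26.0, 15.11, 7.01, 42.5 and 38.9 CPM, and its shift was 4.79 ± 1.20 (adjusted p = 0.0452). Des, an intermediate filament gene of muscle, shifted by 3.52 ± 0.90 (adjusted p = 0.0497), and Rgs5, a pericyte gene, did not pass (1.76 ± 0.99, adjusted p = 0.377). Neither Pdgfrb (3.98 to 5.45) nor Des (3.1 to 3.70) passed without any 1 of 6W pairs 1, 2, 4 and 6 and P1 pairs 2, 3 and 4. Within the first run, where 6W pairs 5 and 6 are absent, 10 of the list passed, and without 6W pair 5 6 did.

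In the remaining lists of other cell types 2 genes passed, both epicardial. No cardiomyocyte marker passed in 16 tested (4 at an unadjusted p below 0.05, and 2 by DESeq2), and their sum was lower in TdTomato+ cells in 4 of 4 P1 pairs (19 to 169 against 34.5 to 223 CPM). At 6W the sums were 84.3 to 716 and 74.8 to 472 CPM, highest in pairs 5 and 6 of the second run. Leukocyte markers were tested in 9 of 18, since the others, Ptprc and Csf1r among them, were below the count filter, and none passed (1 unadjusted, 0 by DESeq2) on sums of 9.06 to 47.6 CPM over all libraries. No marker of erythroid cells and platelets (8 tested, 0 unadjusted, 0 by DESeq2) or of glia and neurons (5 tested, 1 unadjusted, 0 by DESeq2) passed. Of 7 epicardial genes tested Gpm6a shifted by 3.38 ± 0.87 (adjusted p = 0.0494) and Wt1, a zinc finger factor, by -0.76 ± 0.13 (adjusted p = 0.00732), in opposite directions. The median shift of the 7 was 3.32, with 6 above 0. Wt1 was at 91.5 ± 9.05 against 67.5 ± 12.5 CPM at P1 (SD, n = 4), while Upk3b, which defines the mesothelium, stood at or below 2.70 CPM in all 18 libraries. Gpm6a did not pass without 6W pair 1, 4, 5 or 6 or P1 pair 3 or 4 (2.84 to 3.62).

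Collagen genes shifted in both directions. In the list of basement membrane and collagen genes 8 of 29 shifts were positive, Col5a2, Col13a1, Col5a1, Col4a5, Col6a2, Col1a2, Col3a1 and Col6a3, and 4 were negative, Col8a1, Col4a2, Sparc and Col4a1. Col3a1 shifted by 6.88 ± 1.41 (adjusted p = 0.0176) and Col6a3 by 7.04 ± 1.54 (adjusted p = 0.0233). Library 5 decided much of the P1 level of Col3a1, at 119 CPM against 2.47, 0.255 and 1.62 CPM in TdTomato+ libraries 2 to 4, and 132 to 212 CPM in TdTomato- cells. Col3a1 did not pass without P1 pair 2, 3 or 4 (5.88 to 6.65), nor Col6a3 without 6W pair 2 or 6 or P1 pair 2 or 3 (6.18 to 7.74). Col8a1, a short-chain collagen of vessel walls, shifted by -1.70 ± 0.34 (adjusted p = 0.0161) and did not pass without P1 pair 2 (-1.66). Positive counts were 11 without P1 pair 5, 5 without P1 pair 2 and 2 without P1 pair 3.

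The genes with the largest negative shifts came from several families. Aim1, a crystallin-related gene, was at 3.41, 2.76, 7.95 and 4.21 CPM in TdTomato+ cells at P1 and 0.474, 0.0761, 0.969 and 1.14 CPM in TdTomato- cells. At 6 weeks it was at 35.3, 18.7, 40.9, 62.8 and 48.6 CPM and at 35.08, 42.6, 77.2, 52.5 and 60.3 CPM. Its level was low at P1 with the fractions apart, and at 6W the fractions overlapped, with a shift of -3.29 ± 0.45 (adjusted p = 0.00279). Glul, which encodes glutamine synthetase, was at 129, 158, 131 and 86 CPM against 47.8, 52.1, 52.0 and 56.7 CPM at P1. At 6W it was at 88, 78.8, 87.9, 69.1 and 62.8 CPM against 108, 101, 127, 85.7 and 76.2 CPM. TdTomato+ was above its partner in 4 of 4 P1 pairs and below it in 5 of 5 6W pairs, a shift of -1.60 ± 0.19 (adjusted p = 0.00152). Fez1, an adaptor of kinesin transport, shifted by -2.31 ± 0.43 (adjusted p = 0.0103) and Aif1l, an actin-binding protein, by -1.99 ± 0.33 (adjusted p = 0.00577).

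Of the others, Nepn, a small leucine-rich protein, shifted by -1.60 ± 0.32 (adjusted p = 0.0149) and Tnfrsf26, a receptor of the tumour necrosis factor family, by -1.66 ± 0.37 (adjusted p = 0.0263). Nepn did not pass without P1 pair 4 (-1.42), nor Tnfrsf26 without 6W pair 1, 2 or 4 or P1 pair 2, 3 or 4 (-1.71 to -1.5). The large positive shifts outside the lists were Ccdc3 (7.43 ± 1.35, adjusted p = 0.00960), Parm1 (7.32 ± 1.38, adjusted p = 0.0118), Egflam (7.29 ± 1.52, adjusted p = 0.0193) and the integrin gene Itga8 (7.18 ± 1.47, adjusted p = 0.0176). All 4 were lower in TdTomato+ cells in 4 of 4 P1 pairs. Their mean P1 level in TdTomato+ cells was low, at 1.08 (Ccdc3), 0.116 (Parm1), 1.42 (Egflam) and 0.838 CPM (Itga8). TdTomato- cells held 19.9, 3.52, 9.52 and 12.5 CPM in the same order. Parm1 had 10 counts over the 4 TdTomato+ libraries at P1, so the size of its shift rests on few counts. Egflam did not pass without P1 pair 2, 3 or 4 (6.17 to 6.87).

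Cell cycle genes held 2 shifts. Of 32 G2/M genes 2 had a negative shift, where 1.63% of all genes tested did. They were the mitotic kinesin Kif11 (-2.59 ± 0.53, adjusted p = 0.0186) and the chromosomal passenger gene Birc5 (-1.45 ± 0.36, adjusted p = 0.0427). Kif11 was at 16.5 to 71.1 CPM in TdTomato+ and 24.5 to 46.4 CPM in TdTomato- cells at P1, and at 0.0466 to 0.355 and 0.460 to 2.17 CPM at 6W. The P1 fractions overlapped, and at 6W TdTomato+ was the lower in 5 of 5 pairs at levels under 3 CPM. Iqgap3, a scaffold of dividing cells, shifted by -2.60 ± 0.59 (adjusted p = 0.0294). Calls were lost for Kif11 without 6W pair 4 (-2.31), for Iqgap3 without 6W pair 1, 2 or 4 or P1 pair 3 or 4 (-2.75 to -2.07) and for Birc5 without any pair but 6W pair 2 and P1 pair 5 (-1.5 to -1.27). Kif11 also did not pass with limma-voom, in a joint model of 46 libraries or within the first run. Neither did Iqgap3 pass with limma-voom or without the pair term. The count of negative G2/M shifts was 0 with limma-voom and 0 within the first run. No S phase gene of 31 passed (2 at an unadjusted p below 0.05, and 1 by DESeq2).

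Over all genes 4.00% passed, 1.63% with a negative shift, and the counts that follow are read against that share. Interferon genes passed in 1 of 36, Rsad2 (-0.73 ± 0.12, adjusted p = 0.00625), and MHC class I genes in 1 of 13, the immunoproteasome subunit Psmb8 (-0.87 ± 0.17, adjusted p = 0.0147). With P1 pair 5 left out the counts were 5 and 4, and Psmb8 did not pass without 6W pair 1 or 2 or P1 pair 2 or 3 (-0.84 to -0.78). No oxidative phosphorylation gene of 30 (2 unadjusted, 0 by DESeq2), cholesterol gene of 22 (1 and 1), MHC class II gene of 8 (3 and 0) or ABC transporter of 16 (3 and 1) passed. The MHC class II genes still had a median shift of -1.61, with 8 of 8 below 0. Their median effect was 1.48 at P1 and 0.19 at 6W. Their sum was higher in TdTomato+ libraries in 4 of 4 P1 pairs and 4 of 5 6W pairs. Among glycolysis and hypoxia genes 1 of 27 passed, the hypoxia-inducible factor Epas1, at 328 ± 17.9 against 207 ± 12.7 CPM at P1 (SD, n = 4) and 754 ± 66.3 against 750 ± 70.9 CPM at 6W (n = 5), a shift of -0.66 ± 0.09 (SE, adjusted p = 0.00355). Proposed endothelial progenitor markers went both ways, 4 of 15 negative (Sox17, Ly6a, Nes and Sox18) and 2 positive (Procr and Vwf). The negative count was 2 without 6W pair 1 or P1 pair 3. Ly6a, the Sca-1 gene, shifted by -0.92 ± 0.14 (adjusted p = 0.00398). Imprinted growth genes held Dcn and Gnas (-0.39 ± 0.10, adjusted p = 0.0428), and Gnas did not pass without any pair but 6W pair 6 and P1 pair 5 (-0.41 to -0.35).

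The 10 genes that differed at 6W in this model were Tro, Gm13889, Cand2, Ctgf, Mylk, Selp, Myc, Grip2 and Csrp2, higher in TdTomato+ cells, and Apln, lower. Apart from Apln they were chosen after their values were seen. For 7 of the 10 the age shift passed too, and for Gm13889, Mylk and Grip2 it did not (adjusted p = 0.0583, 0.358 and 0.104). Ctgf, a matricellular protein induced by stretch and YAP activity, was at 174, 283, 192, 167 and 126.1 CPM in TdTomato+ cells at 6W and 58.8, 42.3, 56.4, 74.6 and 52.9 CPM in TdTomato- cells. At P1 it was at 34.9, 53.2, 50.7 and 14.4 CPM and 45.1, 85.6, 44.4 and 36.9 CPM. The fractions were apart at 6W and overlapped at P1, with a shift of 2.24 ± 0.34 (adjusted p = 0.00431). Selp, the P-selectin gene of Weibel-Palade bodies, was at 20.6, 28.9, 21.3, 19.8 and 15.3 CPM against 1.43, 2.56, 6.90, 6.25 and 4.96 CPM at 6W and at 2.94 to 7.42 against 3.13 to 6.35 CPM at P1. Its shift of 2.27 ± 0.56 (adjusted p = 0.0408) did not pass without 6W pair 1 or 2 or any P1 pair (1.95 to 2.46).

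Tro, a cell adhesion gene of the MAGE family, had 0 counts in the 5 TdTomato- libraries at 6W and 100 in their partners, at least 32.9-fold higher against 3 counts over the group. At P1 it was at 7.66 to 10.8 CPM in TdTomato+ and 10.4 to 14.6 CPM in TdTomato- cells. Myc was at 11, 12.9, 3.6, 4.72 and 9.44 CPM against 3.77, 3.41, 1.31, 3.75 and 3.31 CPM at 6W and at 54.3 ± 15.3 against 52.1 ± 15.2 CPM at P1 (SD, n = 4). Its level was lower at 6W in both fractions, the shift was 1.30 ± 0.28 (SE, adjusted p = 0.0209), and it did not pass without 6W pair 1 or P1 pair 2 or 3 (1.24 to 1.28). Cand2 (2.77 ± 0.34, adjusted p = 0.00176) and the LIM protein gene Csrp2 (0.93 ± 0.17, adjusted p = 0.00873) passed in the model without any 1 pair.

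**Figure D5:**
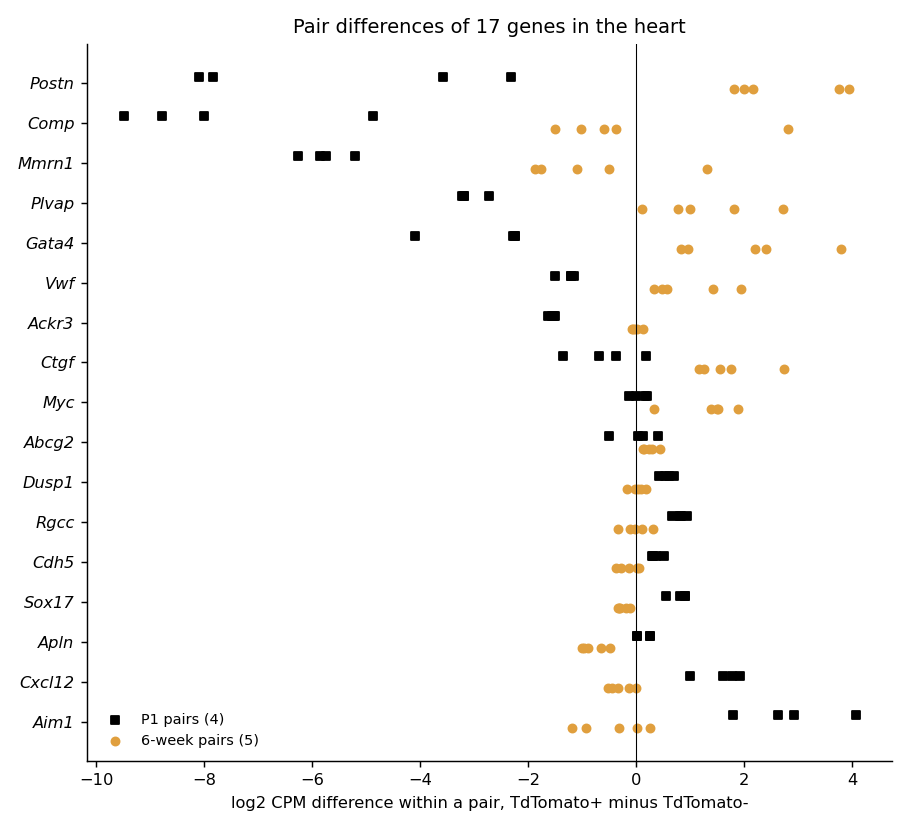
Log2 CPM difference of TdTomato+ minus TdTomato- within each of the 4 P1 pairs (black squares) and 5 6-week pairs (orange circles) for 17 genes. The ages do not overlap except for Abcg2, and Ctgf and Myc differ from 0 at 6W while Plvap, Vwf, Ackr3, Sox17 and Cxcl12 lie farther from 0 at P1 or change side.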

How the data were processed

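RNA-seq counts of 48 libraries were deposited as 1 table of raw read counts per gene, made by the authors with STAR and featureCounts on mm10, per the submitters' processing notes. The strand setting of counting and the tool versions are not given in the sources used here. Further deposited values of the authors are log2 fold changes and p-values with false discovery rates for their own contrasts (edgeR, per the submitters' processing notes), RNA integrity numbers (a score per library, per the file headers) and mapping statistics. The table holds 15569 genes, each with at least 56 counts over the 48 libraries. The run sheets hold 2 samples outside this series, which were not used.

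Counts of the 18 heart libraries were fitted with edgeR 4.0.16 (R 4.3.3, limma 3.58.1): genes kept by filterByExpr (1577 removed), TMM scaling, a quasi-likelihood model with the matched pair as a block and 1 TdTomato+ effect per age, and Benjamini-Hochberg adjustment over all genes tested, called below 0.05. Log2 CPM used a prior count of 2. Standard errors are the effect divided by the square root of F. The labels call same-numbered libraries matched. Deviations from group means correlated within 9 of 9 pairs (0.21 to 0.48 over 8989 genes). In 8 of them the TdTomato+ library correlated best with its own partner among the TdTomato- heart libraries of its age. No replicates agreed within sampling noise (lowest chi-square per degree of freedom 19.6). DESeq2 1.42.0 and the other settings are alternatives. The model was also run on simulated counts with known age shifts. These had the same dispersion for every gene, no pair effect and no fraction difference at P1. That run therefore cannot check the pair block or how shifts that start from a P1 difference are recovered.

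Named genes were Abcg2, the 10 largest positive and 10 largest negative called shifts with at least 10 CPM in a group, 10 counts in each group and no overlap between the ages, up to 3 called genes of smallest p per list, the first 2 markers of each list of another cell type, and the genes called at 6W, except 1 marker gene that is not reported here. Of 613 list symbols 573 were tested. Members and lists were chosen with earlier results of these data known. The heart and skeletal muscle genes that check the tissue labels were chosen after the data were seen.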

Additional observations from a re-analysis of the deposited data

Results flagged for a closer look

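In 15 of 170 groups of 4 or 5 pairs examined, the log2 pair difference of TdTomato+ minus TdTomato- in 1 pair stood far from the others, where chance gives about 1 in 20. That rate holds for independent groups. The genes here share the same libraries and were not picked at random, so the count was not tested against it. Of the 15, 4 were in P1 pair 5 and 3 in 6W pair 2. In 6W pair 2 the difference was 2.81 for Comp (others -1.50 to -0.37), -0.06 for Birc5 (others -1.84 to -1.69) and 3.06 for Gpm6a (others -0.44 to -0.03). In 6W pair 5 the difference was -1.86 for Parm1 (others 2.47 to 3.99) and -0.70 for Egflam (others 2.35 to 2.95). In P1 pair 5 the difference was -2.74 for Ackr4 (others -7.44 to -6.71), -2.73 for Plvap (others -3.22 to -3.18), 0.02 for Smad7 (others 0.65 to 0.75) and 0.46 for Btg2 (others 0.89 to 0.96). In P1 pair 2 the difference was -4.10 for Gata4 (others -2.29 to -2.25) and -1.51 for Vwf (others -1.21 to -1.16). In P1 pair 4 the difference was 0.84 for Epas1 (others 0.59 to 0.62) and -2.07 for Tnnt2 (others -0.87 to -0.64). In 6W pair 6 the difference was -0.39 for Col13a1 (others 0.92 to 1.40) and 0.17 for Gnas (others -0.16 to -0.13).

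The effect of the fraction differed between the ages, by the interaction test itself, for 74 of the named genes (adjusted p below 0.05, edgeR quasi-likelihood), and the values here are their log2 age shifts. Positive shifts included Tbx20 11.16, Tro 7.92, Postn 7.66, Ccdc3 7.43, Comp 7.33, Parm1 7.32, Ackr4 7.30, Egflam 7.29 and Itga8 7.18. Further ones were Col6a3 7.04, Cytl1 6.99, Col3a1 6.88, Dcn 6.00, Mmrn1 5.14, Col1a2 4.95, Pdgfrb 4.79, Gata4 4.71 and Ptgis 4.55. Others above 0 were Plvap 4.36, Pdgfra 3.96, Mgp 3.57, Des 3.52, Fgl2 3.45, Gpm6a 3.38, Foxc2 3.24, Angptl2 2.78 and Cand2 2.77. Smaller values were Selp 2.27, Ctgf 2.24, Vwf 2.22, Vcam1 2.18, Foxc1 2.13, Col13a1 1.93, Mfap5 1.77, Ackr3 1.55 and Ptgs1 1.41. The rest above 0 were Myc 1.30 and Csrp2 0.93. Negative shifts included Aim1 -3.29, Iqgap3 -2.60, Kif11 -2.59, Fez1 -2.31, Aif1l -1.99, Cxcl12 -1.87, Col8a1 -1.70, Tnfrsf26 -1.66 and Glul -1.60. Below 0 there were also Nepn -1.60, Birc5 -1.45, Rbp7 -1.12, Hey1 -1.08, Sox17 -1.05, Apln -0.94, Ly6a -0.92, Jag2 -0.90 and Nr4a1 -0.90. Values nearer to 0 were Psmb8 -0.87, Rgcc -0.83, Acvrl1 -0.77, Wt1 -0.76, Btg2 -0.76, Sox18 -0.75, Cldn5 -0.74, Col4a2 -0.74 and Rsad2 -0.73. Next came Klf4 -0.73, Id1 -0.71, Dll4 -0.71, Smad7 -0.69, Notch4 -0.68, Epas1 -0.66, Dusp1 -0.55, Cdh5 -0.52 and Gnas -0.39. The fitted values of Tbx20 and Tro, each with a group of 3 counts or fewer, depend on the prior count and are no bounds.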

How the results depend on the processing

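The 560 age shifts became 1311 with DESeq2, 1252 in a joint model of 46 libraries and 2 with P1 pair 1 included. Leaving out 1 pair gave 242 to 1030. The P1 effect passed for 1057 genes and became 2165 with DESeq2, 1588 with limma-voom, 486 without the pair block, 2289 in the joint model, 45 with P1 pair 1, 655 within the first run, 194 with RNA integrity as a covariate and 263 to 2364 with 1 pair left out. The 6W effect passed for 10 genes and became 265 with DESeq2, 143 with limma-voom, 22 with no filter, 20 without the pair block, 136 in the joint model, 0 with P1 pair 1 (201 at an unadjusted p below 0.05), 100 within the first run and 3 to 95 with 1 pair left out. The cause was not tested.

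Without the pair block 406 shifts passed, 310 positive and 96 negative. Scaling by total counts alone gave 215 P1 effects above 0 and 670 below, with the median of all genes at -0.14. Named shifts that reversed were Abcg2 (-0.30), Notch4 (0.044) and Pf4 (0.50) with P1 pair 1 included, Lyz2 without P1 pair 5 (-2.26 to 1.28 with 1 pair left out) and Upk3b without 6W pair 4 (-0.30) or P1 pair 2 (-0.048; -0.30 to 2.68). Of 1554 values of the 74 called named genes over 21 settings, 1290 stayed called in the same direction, 263 were no longer called and 1 reversed. Of the 74, 47 passed without any 1 pair. Counts of few reads limit the low genes: a group at 0 allows up to 3 counts.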

Other observations

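P1 pair 1, whose TdTomato+ library failed quality control by its label, entered only the alternative fits that include it. In that library 5413 of the 13992 tested genes (38.7%) had no count, while 585 (4.18%) had a median of 0 counts over the 4 TdTomato+ libraries used at P1. Of the 332 genes with a positive age shift, 179 (53.9%) had no count there, and for 296 (89.2%) its pair difference lay below all 5 6W pairs, as it did for 69.15% of all genes tested. Of the 228 genes with a negative shift, 117 (51.3%) had a pair difference above all 5 6W pairs, against 23.06% of all genes tested, and 17 (7.46%) had no count. The positive shifts lay in genes of lower level than the negative ones (median 26.5 and 228 CPM in the highest group). These shares were not compared at equal level, so the part of level in them was not tested.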
